A study of Homo sapiens with 6 samples.

Results

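The RNA levels of 9 genes that write, read and erase DNA methylation were examined with and without MUC1-C silencing in MDA-MB-436, a cell line of triple-negative breast cancer (TNBC) that carries a BRCA1 mutation. The 9 genes were taken by name and comprise DNMT1, DNMT3A, DNMT3B, UHRF1, TET1, TET2, TET3, MBD2 and TDG. All 9 were found among the 37887 rows of the deposited count table, and all 9 were among the 15355 genes that passed a filter on low counts and were tested. The cells stably carried a tetracycline-inducible MUC1 shRNA and received 0.1% DMSO vehicle in the control group (n = 3 libraries) or 500 ng/ml doxycycline in the shMUC1 group (n = 3 libraries). The sample titles name the controls a control shRNA, whereas the series design describes vehicle-treated cells with the MUC1 shRNA, and the latter was followed here. Cells given doxycycline without the MUC1 shRNA were not analysed here, and neither were cells with another MUC1 shRNA. Effects of the drug, of the silencing and of the shRNA on other transcripts therefore cannot be told apart. The labels state no length of treatment, and a short tag after the cell line name in all column headers is not explained. In bulk RNA, fewer cells of a kind and less RNA per cell cannot be told apart either.

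Methylation of cytosine in CpG dinucleotides is set on unmethylated DNA by the de novo methyltransferases DNMT3A and DNMT3B. It is copied to the new strand after replication by DNMT1, which UHRF1 guides to hemimethylated sites. TET1, TET2 and TET3 oxidize 5-methylcytosine, TDG excises the oxidized bases for repair, and MBD2 binds methylated CpGs and brings the NuRD repressor complex. In cancer cells the writers are best known for silencing of CpG-rich promoters.

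The libraries held from 18678307 to 27825546 counts. Among values from 1 to 20, between 68.8% and 70.5% per library were even, so halved counts were tried as well. The targeted gene MUC1 gave 93, 84 and 102 counts with vehicle against 72, 51 and 34 with doxycycline, a log2 fold change of -0.84 (SE 0.214, edgeR adjusted p = 0.00119). Levels are given in counts per 1000000 counts (CPM). All 6 mesenchymal markers of the line were called, 4 lower and 2 higher in shMUC1 cells, among them VIM, a filament protein, which fell from 718 ± 26 to 417 ± 25.2 CPM, and FN1, a matrix protein, which rose from 962 ± 17.7 to 1285 ± 11.4 CPM (SD, n = 3 each). Their summed level ran from 5098 to 5182 CPM in control and from 5036 to 5191 CPM in shMUC1. The hormone receptor genes ESR1 and PGR had at most 12 and 4 counts in any library. Of 8 immune and endothelial markers, CD3E was at 0 in every library and the summed level ran from 5.13 to 5.38 CPM in control and from 6.18 to 9.09 CPM in shMUC1. CD14 and PTPRC were higher and PECAM1 was lower in shMUC1 cells, each at 6.28 CPM or less on average. Of 9 luminal epithelial markers, GRHL2 was at 0 in every library, KRT19 and RAB25 had at most 4 counts, and the summed level, mostly KRT8 and KRT18, ran from 542 to 579 CPM in control and from 1074 to 1116 CPM in shMUC1. Of the 4 tested, the keratins KRT8 and KRT18 were higher, with log2 fold changes of 0.95 and 1.02, and the claudins CLDN3 and CLDN4 were lower, at -1.31 and -0.70, for a median of 0.13. The part of other cells or of a change in cell state in the results below was not tested.

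MUC1-C silencing was accompanied by lower levels of both de novo methyltransferases, by roughly the same factor, and by small changes or none in the maintenance pair. DNMT3A was at 0.547 and DNMT3B at 0.516 of their control levels, while DNMT1 was at 0.937. TET3 and TET1 were also lower, at 0.733 and 0.759 of control, whereas TET2 and MBD2 were higher, at 1.14 and 1.25 times control. At an adjusted p under 0.05, 2 of the 9 genes were higher and 6 were lower, and UHRF1 was not called. Such calls were common in this comparison: 48.7% of all tested genes were called, 25.2% higher and 23.6% lower. The median log2 fold change was -0.21 over the 9 genes and 0.00058 over all tested genes. None of the 9 passed a fold change over 2, by edgeR, DESeq2 or limma-voom, which 5.95% of tested genes did together with the adjusted p in edgeR, and 2 of 9 (DNMT3A and DNMT3B) passed a fold change over 1.5, against 13.8%. At a fold change over 2 the count was 1 (DNMT3B) without control replicate 3 or without shMUC1 replicate 3. The CPM ranges of the groups were apart for 8 of the 9 genes, and for 54.8% of tested genes.

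**Figure D1:**
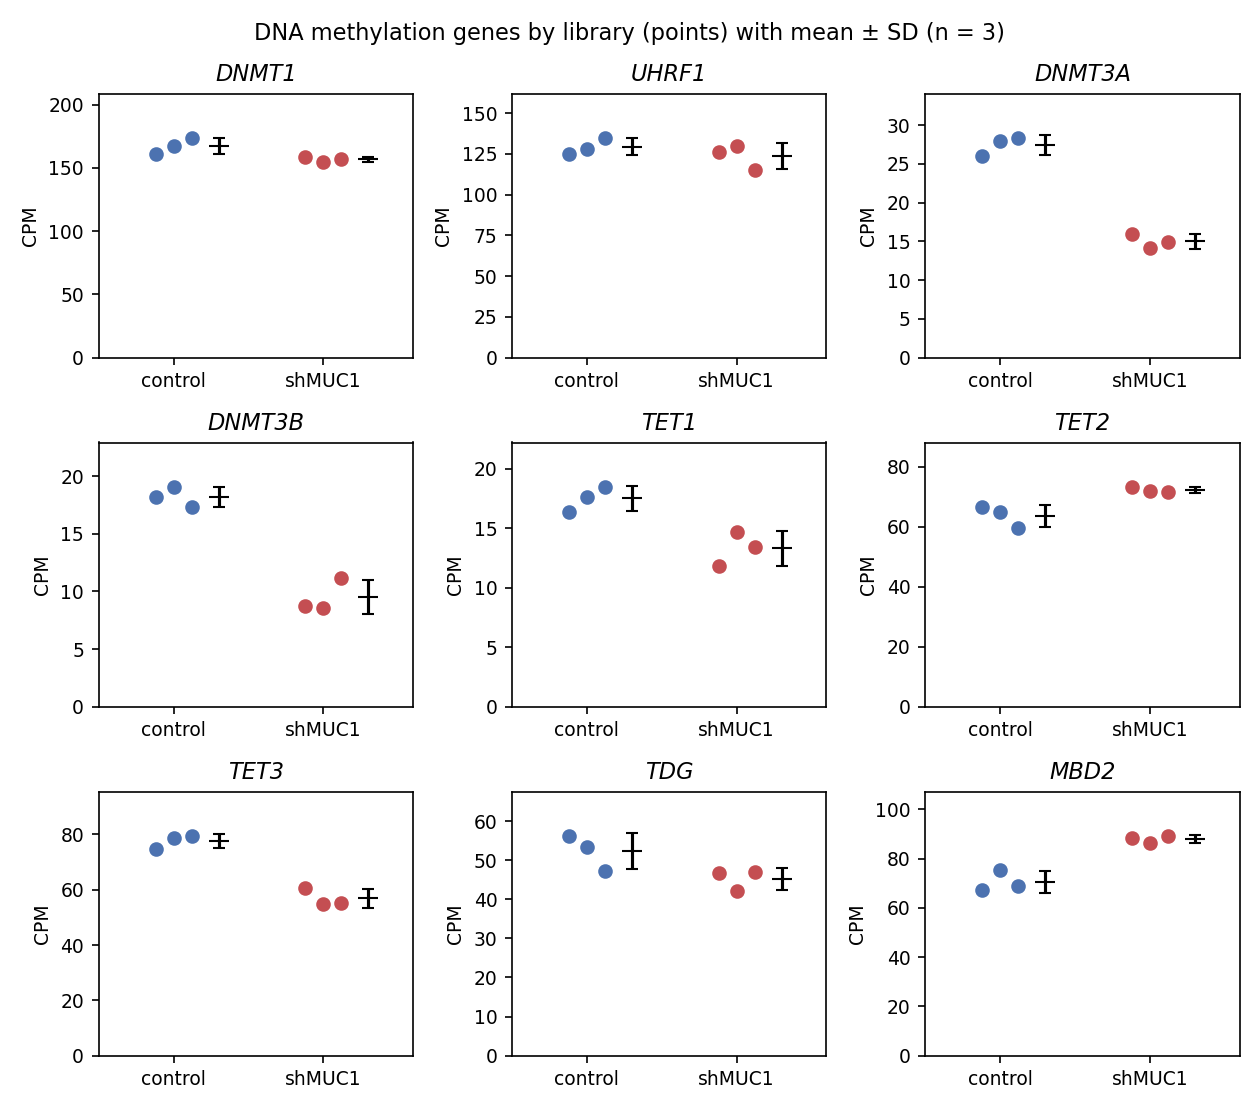
Level of each of the 9 genes (vertical axis, CPM from 0) in the 3 control (blue) and 3 shMUC1 (red) libraries, with the mean and SD beside each group. The groups are far apart for DNMT3A and DNMT3B, close for DNMT1 and TDG, and overlap for UHRF1.

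The de novo enzymes carried the largest changes. DNMT3A had 26, 28 and 28.4 CPM in control libraries and 16, 14.1 and 14.9 CPM in shMUC1 libraries. Every shMUC1 library lay far below every control library. DNMT3A fell by 0.87 on the log2 scale (SE 0.0846, edgeR adjusted p = 5.22e-11). DNMT3B, which is the enzyme of the pair most tied to embryonic and tumour methylation, had 18.2, 19.1 and 17.3 CPM in control and 8.72, 8.58 and 11.2 CPM in shMUC1 libraries. The groups did not overlap, and shMUC1 replicate 3 was the highest of its group. DNMT3B fell by 0.95 on the log2 scale (SE 0.108, edgeR adjusted p = 1.88e-09), and its log2 fold change was -1.07 without shMUC1 replicate 3. The count ratio of DNMT3B to DNMT3A within a library was 0.7, 0.683 and 0.61 in control and 0.544, 0.607 and 0.751 in shMUC1 cells. These ranges overlapped, with a difference of -0.078 on the log2 scale (exact two-sided permutation p = 0.6, adjusted p = 0.7 over 6 ratios). DNMT3L, the catalytically inactive cofactor of both enzymes, had at most 2 counts in any library, below a floor of 3 counts (0.161 CPM in the shallowest library), which leaves no level to compare.

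The maintenance pair stayed close to its control level. DNMT1 had 161, 167 and 174 CPM in control and 159, 155 and 157 CPM in shMUC1 libraries, so that the groups were just apart. DNMT1 fell by 0.094 on the log2 scale (SE 0.0379, edgeR adjusted p = 0.0394). This call was lost in 7 of 16 alternatives, with adjusted p from 0.0089 to 0.321 over all of them, and was lost on leaving out any of 5 of the 6 libraries. UHRF1 had 125, 128 and 135 CPM in control and 126, 130 and 115 CPM in shMUC1 libraries, with a log2 fold change of -0.064 (SE 0.0438, edgeR adjusted p = 0.237). Its groups overlapped, and shMUC1 replicate 3 was the lowest of the 6. UHRF2, the paralogue of UHRF1, had a log2 fold change of 0.019 (SE 0.0491, edgeR adjusted p = 0.777). The count ratio of DNMT3A to DNMT1 ran from 0.161 to 0.168 in control and from 0.0915 to 0.101 in shMUC1 libraries, and that of DNMT3B to DNMT1 from 0.0996 to 0.115 and from 0.0549 to 0.0711. Both ratios were lower in every shMUC1 library than in every control library, by 0.78 and 0.86 on the log2 scale. For each, the exact two-sided permutation p was 0.1, the smallest that 3 against 3 allows, and the 2 ratios were chosen after the values were known.

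**Figure D2:**
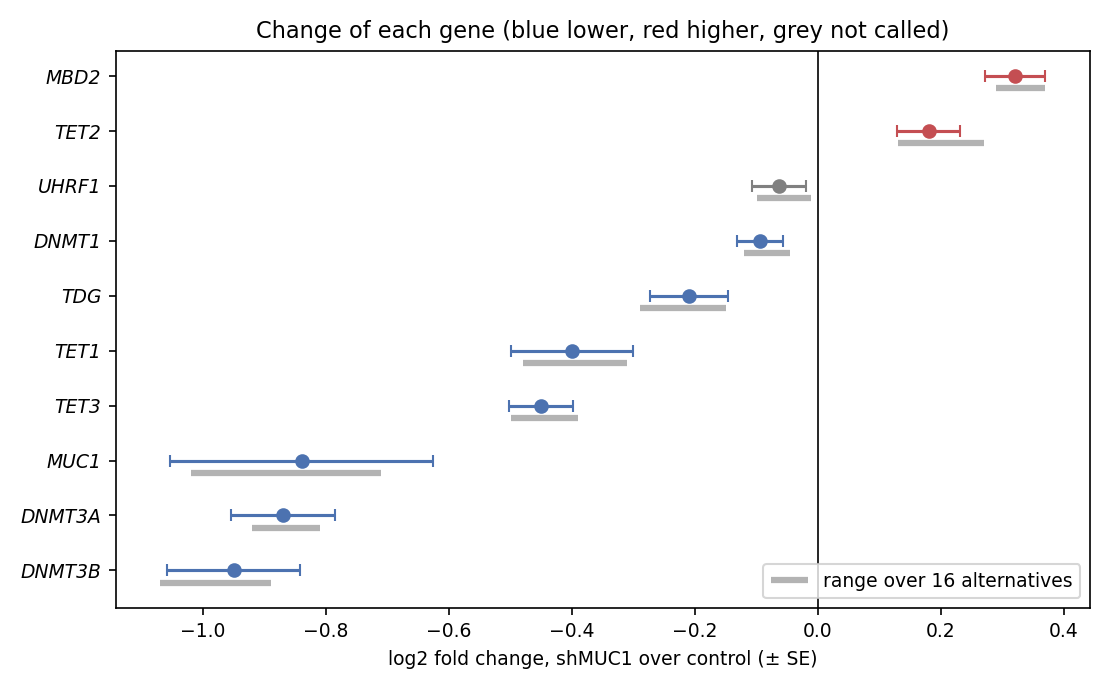
Log2 fold change of each gene and of MUC1 (horizontal axis, shMUC1 over control, with SE), where grey bars give the lowest and highest value over 16 alternative analyses. DNMT3B at -0.95 and DNMT3A at -0.87 lie farthest from 0, and no bar of any gene crosses 0.

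DNMT1 and UHRF1 are expressed with DNA replication, so their levels were set against genes of the cell cycle. Of 20 S phase genes, 9 were higher and 1 lower in shMUC1 cells, with a median log2 fold change of 0.10. CDT1, a replication licensing factor, rose by 0.35 and SLBP, which binds histone mRNA, by 0.20, while RRM2, a subunit of ribonucleotide reductase, fell by 0.091 on the log2 scale. Of 16 mitosis genes, 8 were lower and 8 were not called, with a median of -0.14. In both lists 50% of genes were called, near the 48.7% of all tested genes. CENPF, a kinetochore protein, fell by 0.40 and the kinase PLK1 by 0.33. Relative to the mean of the S phase genes, DNMT1 was lower in every shMUC1 library, at 0.96 ± 0.015 against 1.15 ± 0.0332 log2 units above that mean (SD, n = 3 each, exact two-sided permutation p = 0.1, the smallest possible). UHRF1 was lower too, at 0.62 ± 0.0909 against 0.78 ± 0.0309 log2 units (SD, n = 3 each, exact permutation p = 0.1). Relative to the mitosis genes the signs turned, to differences of 0.095 for DNMT1 and 0.12 for UHRF1 with overlapping groups, so the direction depends on which phase is the reference. The share of the cell cycle in the level of either gene was not tested.

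The oxidases did not move together. TET3 had 74.9, 78.7 and 79.6 CPM in control and 60.8, 54.7 and 55.3 CPM in shMUC1 libraries. TET3 fell by 0.45 on the log2 scale (SE 0.0518, edgeR adjusted p = 3.14e-09), with no overlap. TET1, which acts mainly in embryonic and germ cells, had 16.4, 17.6 and 18.5 CPM in control and 11.8, 14.7 and 13.4 CPM in shMUC1 libraries. TET1 fell by 0.40 on the log2 scale (SE 0.0997, edgeR adjusted p = 0.00106), again with no overlap. TET2, often mutated in blood cancers, had 66.6, 64.9 and 59.5 CPM in control and 73.4, 71.8 and 71.6 CPM in shMUC1 libraries. TET2 rose by 0.18 on the log2 scale (SE 0.0509, edgeR adjusted p = 0.0026), and without control replicate 3 it was at 0.13 with an adjusted p of 0.0509. The count ratio of TET2 to TET3 was 0.89, 0.824 and 0.748 in control and 1.21, 1.31 and 1.29 in shMUC1 libraries, higher in every shMUC1 library. Counts grow with transcript length, so only the change of the ratio between groups is read here, not which gene has the higher level. The difference was 0.63 on the log2 scale (exact two-sided permutation p = 0.1, the smallest possible, adjusted p = 0.3 over 6 ratios). The ratio of TET1 to TET3 had overlapping groups and a difference of 0.052 (exact permutation p = 0.7, adjusted p = 0.7).

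**Figure D3:**
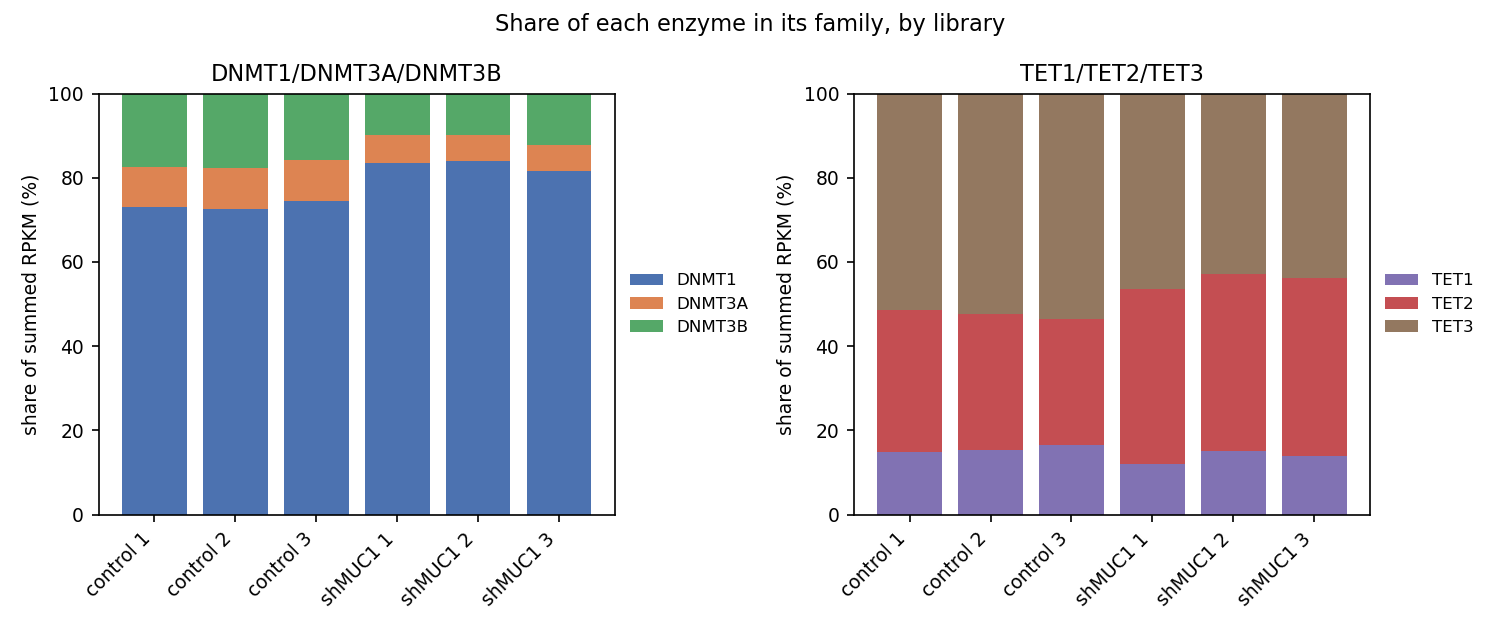
Share of each enzyme in the summed RPKM of its family (stacked bars, %, 1 bar per library) for DNMT1, DNMT3A and DNMT3B and for TET1, TET2 and TET3. DNMT1 makes up 73.3% of its family on average in control and 82.9% in shMUC1 libraries, and TET2 makes up 32% and 41.9%.

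The order of the levels of different genes was taken per kilobase of annotated exon (RPKM, counts per 1000000 counts and per kilobase). In control cells UHRF1 was highest at 25.1 ± 0.967 RPKM (SD, n = 3), followed by DNMT1 at 17.1 ± 0.659, MBD2 at 12.1 ± 0.75, TDG at 10.7 ± 0.949, TET3 at 6.34 ± 0.204, DNMT3B at 3.94 ± 0.193, TET2 at 3.87 ± 0.225, DNMT3A at 2.29 ± 0.108 and TET1 at 1.89 ± 0.115. Of neighbours in this order, only DNMT3B and TET2 had overlapping ranges. In shMUC1 cells TET2 stood above DNMT3B (4.39 ± 0.0606 against 2.05 ± 0.316 RPKM, SD, n = 3 each), and DNMT3A was the lowest at 1.25 ± 0.0795 RPKM, with a range that overlapped that of TET1. The share of DNMT3A in the summed RPKM of the 3 methyltransferases was 9.8% ± 0.183 in control and 6.47% ± 0.344 in shMUC1 cells, and that of DNMT3B was 16.9% ± 1.06 and 10.6% ± 1.43 (SD, n = 3 each). Order and shares depend on the length used. The other length was that of the transcript of the longest coding sequence, in place of all exons. With it, UHRF1 (32.6 ± 1.25 RPKM) and DNMT1 (32.1 RPKM) differed in control cells by less than the SD of either. TDG stood above MBD2 in control cells (16.1 ± 1.43 against 13.6 ± 0.84 RPKM), with overlapping ranges, and TET2 stood above DNMT3B. In shMUC1 cells TET2 stood above TET3 (7.11 ± 0.0981 against 5 ± 0.294 RPKM, SD, n = 3 each). TET1 was the lowest there (1.44 ± 0.155 RPKM), with a range that overlapped that of DNMT3A (1.58 ± 0.101 RPKM). With that length the share of DNMT3B was 10.7% ± 0.72 in control and 6.45% ± 0.913 in shMUC1 cells, that of DNMT3A was 7.37% ± 0.132 and 4.66% ± 0.238, and that of TET2 in its family was 41.8% ± 2.28 and 52.5% ± 0.282 (SD, n = 3 each). With either length, DNMT3A and DNMT3B had lower shares in every shMUC1 library than in every control library, and TET2 had higher ones. The length of a gene is the same in every library, so its choice could do little to change this direction.

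TDG and MBD2 went in opposite directions. TDG had 56.3, 53.3 and 47.2 CPM in control and 46.8, 42 and 47 CPM in shMUC1 libraries, so that the lowest control library all but met the highest shMUC1 library. TDG fell by 0.21 on the log2 scale (SE 0.0635, edgeR adjusted p = 0.00684). The call was lost without control replicate 1 (adjusted p = 0.0866) and without shMUC1 replicate 2 (adjusted p = 0.0777), with a log2 fold change of -0.15 in both. The annotation holds 1 pseudogene named for TDG and 1 for TET1, and reads shared with these copies could be lost or split. MBD2 had 67.3, 75.5 and 68.8 CPM in control and 88.5, 86.3 and 89.4 CPM in shMUC1 libraries. MBD2 rose by 0.32 on the log2 scale (SE 0.0485, edgeR adjusted p = 8.17e-07), and its groups were well apart.

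Of other MBD genes, MBD1, MBD3 and MBD5 were lower, MBD6 was higher and MBD4 did not pass the test. MBD3, the subunit that takes the place of MBD2 in an alternative NuRD complex, fell by 0.71 (SE 0.0947) and MBD1 by 0.23 (SE 0.0612) on the log2 scale, with edgeR adjusted p of 7.27e-08 and 0.00184. MBD4, a glycosylase for T mismatched with G, had a log2 fold change of 0.023 (edgeR adjusted p = 0.841). MBD5 and MBD6, named after their values were seen, had log2 fold changes of -0.67 and 0.40. The ratio of MBD2 to MBD3 counts was 3.36, 3.79 and 3.05 in control and 6.41, 7.03 and 7.36 in shMUC1 libraries. Every shMUC1 library was above every control library, with a difference of 1.03 on the log2 scale (exact two-sided permutation p = 0.1, the smallest possible, adjusted p = 0.3 over 6 ratios).

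**Figure D4:**
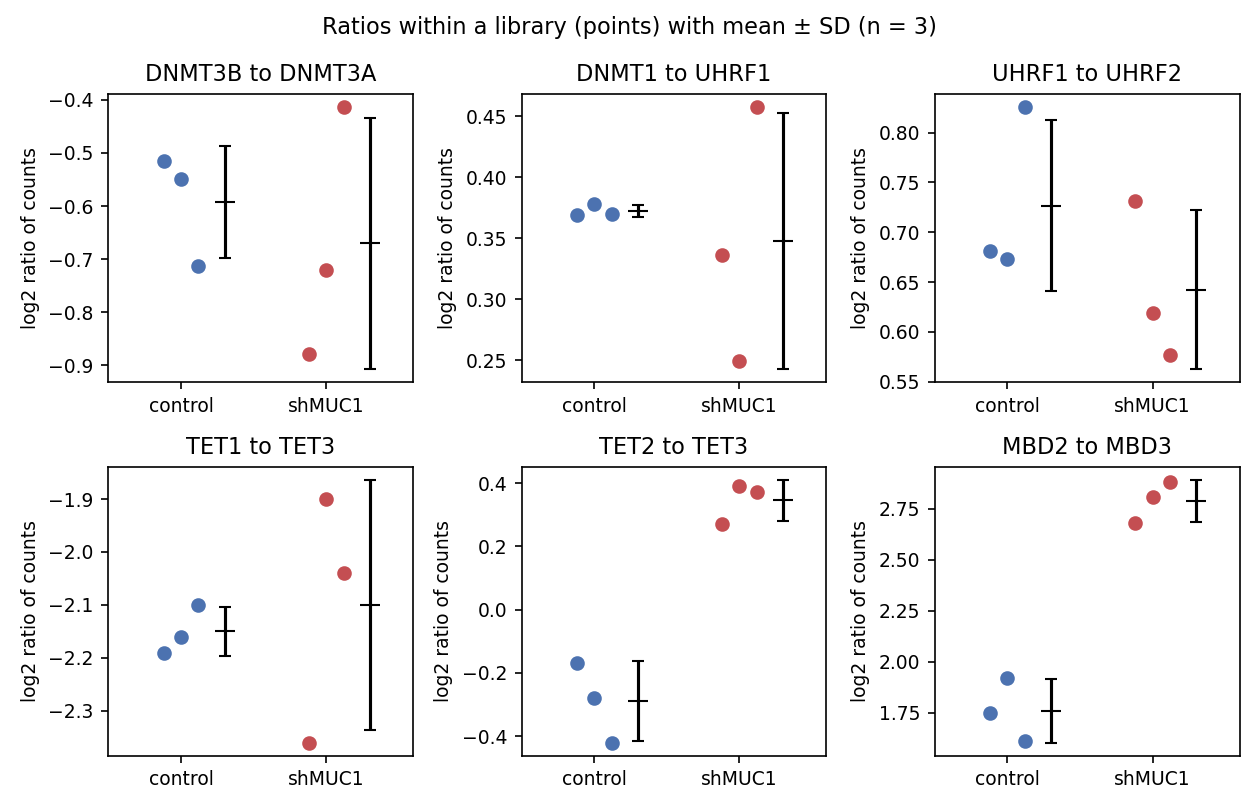
Log2 ratio of the counts of paired genes within a library (vertical axis) in control (blue) and shMUC1 (red) libraries, with the mean and SD of each group (n = 3). TET2 to TET3 and MBD2 to MBD3 separate the groups, with differences of 0.63 and 1.03, and the other 4 ratios overlap.

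The word ATCAGTA in 3' untranslated regions (3' UTRs) had been tied to lower expression by an earlier scan of these same fold changes, so the 9 genes were searched for it as a description and not as independent evidence. Annotated 3' UTRs of DNMT3A, DNMT3B and TET3 hold the word, and these are the 3 genes with the largest falls among the 9, although TET3 and TET1 differed by less than their SE. Windows around each site are shown as a description only, written in the sense of the transcript with the word in capitals.
DNMT3A: ttgcagcaaaaATCAGTAacaaaaaatag
DNMT3B: gtttaattaaaATCAGTAtttgtcta
TET3: ttgcttatcgcATCAGTActtttatgcag

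DNMT3A spans chr2:25227855-25342590, DNMT3B chr20:32762385-32809356 and TET3 chr2:73986404-74108176, and the windows lie at chr2:25233883-25233911 on the minus strand for DNMT3A, at chr20:32809331-32809356 on the plus strand for DNMT3B, and at chr2:74104451-74104479 on the plus strand for TET3 (GRCh38, GENCODE release 29). The word was present in 3 of 5 DNMT3A, 4 of 6 DNMT3B and 1 of 1 TET3 coding transcripts with an annotated 3' UTR, and in DNMT3B it ends 8 bases before the end of the transcript. UHRF1, TET1, TET2, TDG and MBD2 hold only the 6-base core TCAGTA, which is part of the longer word, and DNMT1 holds neither. The core was found in genes that rose as well as in genes that fell. TET2 and MBD2, which rose, hold it in 5 of 5 and 1 of 3 such transcripts. DNMT3A and TET3 also hold it at sites outside the longer word. TET1 has the core at 2 places, which are shown because TET1 fell without the longer word.
TET1 first site: tcccacctttcTCAGTAtaatccatgag
TET1 second site: gcaaattatctTCAGTAtaatccatggt

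The TET1 windows lie at chr10:68692784-68692811 and chr10:68694032-68694059 on the plus strand. Only the transcript strand was searched. Among 13023 tested genes with such a 3' UTR, 12.8% hold ATCAGTA, 25% hold TCAGTA only and 62.2% hold neither. Of these groups of genes, 43.2%, 28.8% and 19.8% were called lower and 20.7%, 26.7% and 29.9% higher. The scan that named the word used these same fold changes, so the shares are no independent support for it. A long 3' UTR is more likely to hold any word by its length, and genes of like 3' UTR length were not compared. The longest 3' UTRs have 6424 bases in DNMT3A, 6000 in TET3 and 1453 in DNMT3B, which hold the word. In the genes without it they have 5331 bases in TET2, 3723 in MBD2, 2668 in TET1, 1784 in TDG, 1351 in UHRF1 and 321 in DNMT1. The part of 3' UTR length in the changes was not tested. The sequence of the shRNA was not used here, and whether the word acts on any of these transcripts was not tested.

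The other genes of the pathway were taken from lists written from general knowledge. Of 17 tested partners of the writers, 2 were higher and 6 lower, with a median log2 fold change of -0.031 (-0.079 without control replicate 3 and -0.016 without control replicate 2). QSER1, which guards DNA against methylation, fell by 0.42 and TRIM28, a corepressor at silenced repeats, by 0.23, while CDCA7L, a paralogue of the chromatin remodelling cofactor CDCA7, rose by 0.45 and SETDB1, a histone H3K9 methyltransferase, by 0.18 on the log2 scale. Of 21 other MBD genes, methyl-CpG readers and NuRD subunits, 6 were higher and 7 lower (median -0.045), with GATAD2A at 0.22 and HDAC1 at 0.21 among the higher. Of 18 TET cofactors and base excision repair genes, 4 were higher and 6 lower (median 0.028). CXXC5, a CXXC protein that binds TET2, fell by 0.52 and GADD45A, a damage-induced gene linked to demethylation, by 0.46, whereas PARP1, which marks DNA breaks, rose by 0.42 on the log2 scale.

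The methyl donor cycle, which makes and recycles S-adenosylmethionine, had 6 higher and 3 lower of 15 tested genes (median 0.056). MAT2A, the enzyme that makes S-adenosylmethionine in most tissues, fell by 0.50 (SE 0.0329) from 350 ± 10.5 to 247 ± 1.64 CPM (SD, n = 3 each, edgeR adjusted p = 1.29e-15), and MAT2B, its regulatory subunit, by 0.28 on the log2 scale. AHCYL2 and AHCYL1, homologues of the enzyme that clears S-adenosylhomocysteine, rose by 0.80 and 0.31. Over these 4 lists, 22 of 71 tested genes with an annotated 3' UTR were lower and 18 higher. Called genes made up 47.1%, 61.9%, 55.6% and 60% of the 4 lists in the order given, against 48.7% of all tested genes.

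**Figure D5:**
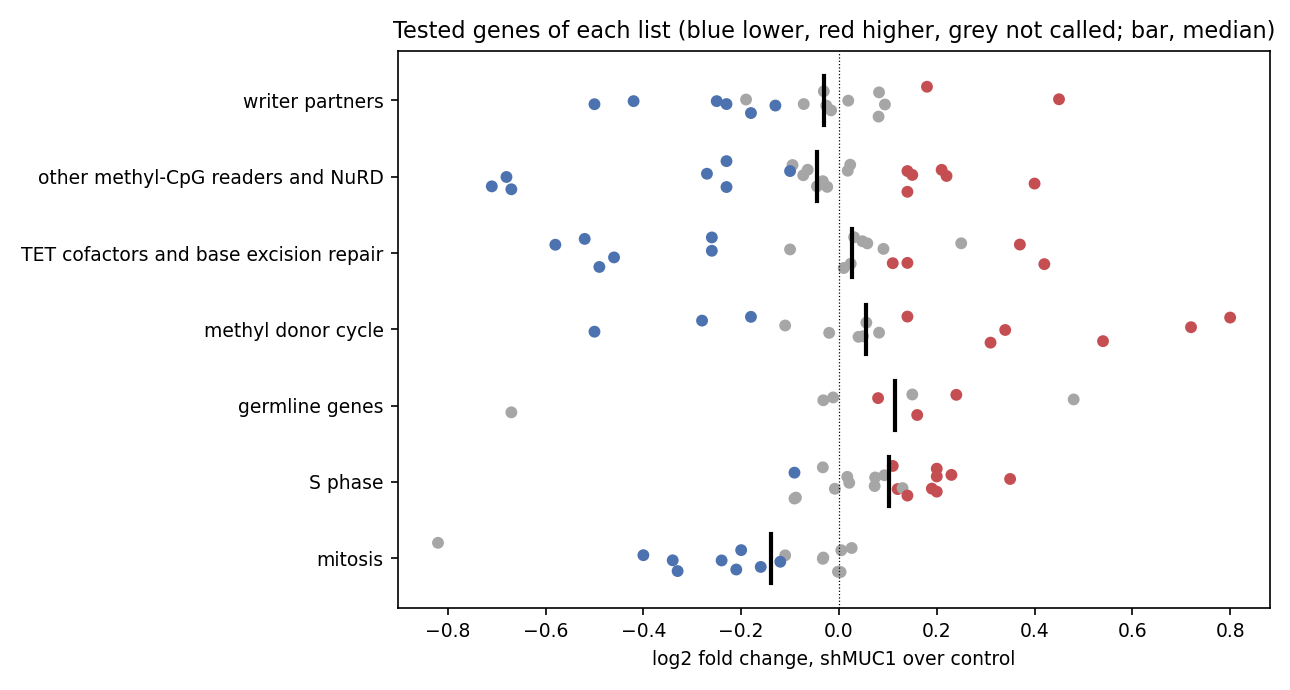
Log2 fold change (horizontal axis, shMUC1 over control) of each tested gene in 7 lists, coloured by call, with the median of each list as a bar. Pathway lists spread to both sides of 0, with medians from -0.045 to 0.056, while S phase genes lie mostly above 0 and mitosis genes mostly below.

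Genes of the germline that promoter methylation normally keeps silent in somatic cells were examined as well. Of 34 such genes, 18 had 0 counts in all 6 libraries and 8 had enough counts to test, of which 3 were higher and 5 were not called. That is 37.5% of the 8, while 48.7% of all tested genes were called and 25.2% were called higher. The cancer-testis genes MAGEA10 and MAGEA4 and the meiotic gene HORMAD1 rose by 0.16, 0.08 and 0.24 on the log2 scale (edgeR adjusted p = 0.00171, 0.0268 and 0.00826), and all 3 were already expressed in control cells, at 103, 399 and 26.7 CPM. MAGEA genes are close copies of each other, so their counts are uncertain. The summed level of the list, mostly MAGEA4, ran from 595 to 604 CPM in control and from 635 to 639 CPM in shMUC1 libraries. MAGEA4 alone averaged 399 CPM in control and 421 CPM in shMUC1 libraries. DNA methylation itself was not measured in these libraries.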

How the data were processed

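RNA from MDA-MB-436 cells cultured in triplicate was sequenced with a stranded poly(A) kit. The deposited table holds the authors' unnormalized counts of reads for each gene symbol. The submitters' processing notes name CASAVA 1.8.2, STAR 2.7.9a, featureCounts, DESeq2 and GRCh38.p7, and the annotation and strand setting are not given in the sources used here. None of the 9 genes shares exon sequence with an opposite-strand gene in GENCODE release 29, while DNMT1 shares 83 exon bases with S1PR2, and MUC1 shares 48 with AL713999.1, on the same strand. Counts were tested across all genes with the edgeR 4.0.16 quasi-likelihood test (R 4.3.3, TMM, filterByExpr, group only, two-sided, Benjamini-Hochberg over 15355 genes), and scripts were tested on simulated data. CPM used TMM-scaled library sizes, and SE came from the quasi-likelihood F. Alternatives used DESeq2 1.42.0, limma 3.58.1 (voom), other scalings and filters, a replicate block and each library left out. Halved counts, family shares with another gene length, and removal of mitochondrially encoded genes and of a GC content and length trend were added after seeing the data. Named genes were all members, MUC1, DNMT3L, UHRF2, MBD1, MBD3, MBD4 and the 2 genes of lowest adjusted p in each direction per list, some of which are not reported here. MAGEA4, MBD5, MBD6, ESR1, PGR, KRT19 and RAB25 were named after their values were seen. Members and lists were chosen with earlier results of these data known. P-values measure the spread between libraries, which may be technical. GENCODE gave lengths and 3' UTRs. Exact permutation tests were two-sided. The floor of 3 counts covers counting error only.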

Additional observations from a re-analysis of the deposited data

How the results depend on the processing

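DNMT3A, DNMT3B, TET1, TET3, MBD2 and MUC1 kept their direction and their call in all 16 alternatives, with log2 fold changes from -0.92 to -0.81, -1.07 to -0.89, -0.48 to -0.31, -0.50 to -0.39, 0.29 to 0.37 and -1.02 to -0.71, and UHRF1 was never called (-0.10 to -0.012). DNMT1 lost its call with no low-count filter (-0.083, adjusted p = 0.0989) and after removal of a trend with GC content and length (-0.045, adjusted p = 0.321). Leaving out each library gave DNMT1 from -0.12 to -0.076, TET2 from 0.13 to 0.22, TDG from -0.29 to -0.15, from 6 to 7 called genes of the 9 (8 in the full data), from 4 to 5 lower ones (6 in the full data), from 1 to 2 higher ones, and 0 or 1 past a fold change over 2. A fold change over 1.5 gave 2. The causes were not tested.

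Without shMUC1 replicate 1 or 2, small differences in ratios turned sign: DNMT3B to DNMT3A ran from -0.21 to 0.026, DNMT1 to UHRF1 from -0.08 to 0.025 and TET1 to TET3 from -0.049 to 0.18 over the libraries left out. With the mitosis list as reference, DNMT1 and UHRF1 were at 0.095 and 0.12. The median of the TET cofactor and repair list was -0.0086 after the trend with GC content and length was removed and from -0.02 to 0.054 with a library left out. The writer partner median ran from -0.079 to -0.016 with a library left out. The luminal epithelial median, 0.13 over 4 genes, was -0.99 with no low-count filter, 0.93 over genes averaging 50 counts or more and from -0.0059 to 0.20 with a library left out. Replicate numbers did not pair the libraries (correlations of 0.0049, -0.032 and -0.038), and with a replicate block 8 of the 9 genes were called as before, DNMT3A at -0.87. DNMT3L was under the floor of 3 counts in every library, while the 9 genes had from 208 to 4496 counts per library.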
